A study of Mus musculus with 8 samples.

Results

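The serotonin receptor genes of mouse striatum were examined as a family. The 10 genes were those listed for it by symbol (Htr1a, Htr1b, Htr1d, Htr1f, Htr2a, Htr2c, Htr4, Htr5a, Htr6 and Htr7), and all 10 were found among the 55032 genes of the count table. RNA sequencing of striatum had been performed on 4 wild type (WT) and 4 16p11.2+/- female C57BL/6 mice at postnatal day 60. The 16p11.2+/- mice carry one copy of the chromosomal segment equivalent to human 16p11.2 in every cell, so the deletion is not limited to the striatum or to neurons. The label of each mouse gives its animal number, with WT-1015, WT-1041, WT-1061 and WT-1063 as WT and DF-1018, DF-1037, DF-1059 and DF-1062 as 16p11.2+/-. Total gene counts ranged from 15125051 to 16387993 in WT mice and from 15240680 to 16523429 in 16p11.2+/- mice. Levels are given as FPKM, fragments scaled by gene length and by the total of the library, so that different genes can be set side by side. All 10 genes had enough counts to be tested, from 17 counts of Htr4 in DF-1037 to 2852 counts of Htr2c in WT-1063.

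Serotonin reaches the striatum in axons from the raphe nuclei, whose cell bodies lie in the brainstem. The receptors listed here are all G protein-coupled. Those of the Htr1 and Htr5 groups couple to inhibitory Gi/o proteins, which reduce cyclic AMP. Htr2a and Htr2c act through Gq/11 and phospholipase C. Htr4, Htr6 and Htr7 stimulate adenylyl cyclase through Gs. The principal neurons of the striatum are GABAergic medium spiny neurons (MSNs), which express dopamine receptors and send axons to the globus pallidus and midbrain. Htr1b is a well known receptor of MSN axon terminals, and Htr6 is also found in these cells.

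Promoter sequence is shown for Htr1b, Htr1d and Htr6, chosen after the values were seen, because Htr1d and Htr6 were the receptors with the highest correlations with Htr1b over the mice. No pair of receptors passed the adjusted test. The sequences are the 250 bases before the most upstream RefSeq start of each gene in GRCm38.p6, printed 5′ to 3′ on the strand of the gene. They lie at chr9:81633833-81634082 (minus strand) for Htr1b, at chr4:136423274-136423523 (plus strand) for Htr1d and at chr4:139075571-139075820 (minus strand) for Htr6. Capitals mark matches on either strand to a GC box (GGGCGG) or to CCAAT.
Htr1b: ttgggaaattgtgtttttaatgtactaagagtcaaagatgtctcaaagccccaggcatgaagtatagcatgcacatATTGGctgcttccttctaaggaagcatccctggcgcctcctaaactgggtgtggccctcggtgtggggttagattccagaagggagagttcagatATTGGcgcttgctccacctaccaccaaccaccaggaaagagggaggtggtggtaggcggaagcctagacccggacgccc
Htr1d: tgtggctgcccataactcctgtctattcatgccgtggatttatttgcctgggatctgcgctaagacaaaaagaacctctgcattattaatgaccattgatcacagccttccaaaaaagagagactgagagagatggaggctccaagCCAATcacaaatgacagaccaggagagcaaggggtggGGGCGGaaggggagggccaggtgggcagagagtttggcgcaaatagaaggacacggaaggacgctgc
Htr6: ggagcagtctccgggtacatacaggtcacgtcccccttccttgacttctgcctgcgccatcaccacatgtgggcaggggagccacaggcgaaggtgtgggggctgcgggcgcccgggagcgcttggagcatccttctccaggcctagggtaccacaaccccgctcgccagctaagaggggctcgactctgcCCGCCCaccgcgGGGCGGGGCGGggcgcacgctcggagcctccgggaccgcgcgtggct
The Htr1b sequence holds CCAAT at positions -174 and -79 counted from the start, both on the opposite strand, and no GC box. The Htr1d sequence holds CCAAT at -104 and a GC box at -67. The Htr6 sequence holds GC boxes at -59, -47 and -42, of which the last pair overlap, and no CCAAT. No motif was found in all 3 sequences. Of 27025 RefSeq promoters cut to the same length, 33.0% hold a GC box and 34.5% hold CCAAT, so neither match is rare. The cyclic AMP response element TGACGTCA (1.60% of promoters), TATAAA (12.98%) and the E-box CACGTG (6.04%) were searched in the same way and were not matched in these 3 windows. RefSeq promoters were matched for 9 of the 10 receptors, the exception being Htr4. A match to these letters describes the sequence and does not show a bound site.

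The genotype labels were checked with genes of the deleted segment. Taok2, a kinase gene of the segment, was listed at 17.0 to 18.8 FPKM in WT and 8.91 to 9.82 FPKM in 16p11.2+/- mice (log2 fold change -0.97, edgeR adjusted p = 0.000777). Mapk3, which encodes the kinase ERK1, was listed at 35.7 to 46.4 FPKM in WT and 20.7 to 22.3 FPKM in 16p11.2+/- mice (log2 fold change -0.94, edgeR adjusted p = 0.00986). The glycolytic gene Aldoa (entry ENSMUSG00000030695) was at 289 to 309 FPKM in WT and 145 to 160 FPKM in 16p11.2+/- mice (log2 fold change -0.997, edgeR adjusted p = 0.00169). All 3 separated the genotypes in every mouse. Another entry with the symbol Aldoa (ENSMUSG00000114515) was not read for this check.

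The tissue label was checked with MSN markers, and 2 libraries stood apart. Ppp1r1b, which encodes the MSN phosphoprotein DARPP-32, was listed at 298, 238, 359 and 220 FPKM in WT-1015, WT-1041, WT-1061 and WT-1063. In DF-1018, DF-1037, DF-1059 and DF-1062 it was listed at 309, 83.5, 312 and 47.5 FPKM. The dopamine receptor gene Drd1 was at 47.9 to 78.1 FPKM in WT, and at 73.9, 18.3, 62.3 and 14.6 FPKM in the 16p11.2+/- mice in the same order. Drd2 had 69.4, 14.9, 66.4 and 12.0 FPKM in those mice against 45.5 to 70.4 FPKM in WT. DF-1037 and DF-1062 were thus below all other mice for these 3 genes. The whole MSN list of 7 genes was summarised by its mean log2 CPM (counts scaled by the library total adjusted by TMM), called the MSN score here. The score was 9.46, 8.99, 9.58 and 8.79 in the WT mice and 9.47, 7.54, 9.31 and 6.95 in the 16p11.2+/- mice. No gene of the list was at 0 in any mouse, and its summed FPKM was 709 to 1193 in WT and 1091, 276, 1032 and 187 in 16p11.2+/- mice. All 7 genes had a log2 fold change below 0, with a median of -0.57, and none passed the test. In whole tissue, fewer cells of a type and less RNA per cell cannot be told apart.

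Markers of neighbouring structures also varied between mice. Thalamic neuron genes (7 genes, of which Prkcd was the most abundant) summed to 18.5, 23.7, 14.3 and 191 FPKM in the WT mice and to 104, 199, 21.4 and 134 FPKM in the 16p11.2+/- mice. The high mice were thus WT-1063, DF-1018, DF-1037 and DF-1062. Choroid plexus genes (6 genes, 3 tested) summed to 477, 7.31, 16.8 and 4418.5 FPKM in WT and to 25.3, 126, 11.4 and 16.5 FPKM in 16p11.2+/- mice. In WT-1063 most of this was Ttr, the transthyretin gene, at 4273 FPKM. 1 choroid plexus gene was at 0 in WT-1041 and DF-1018. Habenula genes (5 genes, 4 tested) summed to 1.87 to 4.82 FPKM in WT and to 3.19, 4.11, 2.95 and 23.3 FPKM in 16p11.2+/- mice, and the habenular receptor gene Gpr151 reached 6.34 FPKM in DF-1062 against at most 0.84 FPKM in the other mice. Cortical glutamatergic genes (7 genes, led by Slc17a7) summed to 101, 124, 49.5 and 21.8 FPKM in WT and 11.8, 158, 43.5 and 11.9 FPKM in 16p11.2+/- mice. Fold changes were above 0 for 7 of 7 thalamic genes (median log2 0.76) and 4 of 4 habenula genes (median 1.25), and below 0 for 7 of 7 cortical (median -0.58) and 3 of 3 choroid plexus genes (median -3.52), and none passed the adjusted test. An unadjusted p under 0.05 was found for Ttr (0.0476) and Kl (0.0253) among the choroid plexus genes and for Gpr151 (0.0440) among the habenula genes, each with an edgeR adjusted p of 0.859. The receptor values are given for each mouse, and the edgeR fold change of each receptor is given with and without DF-1037 and DF-1062.

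Among the Gi/o-coupled receptors, Htr1b, the terminal autoreceptor and heteroreceptor, had the highest mean FPKM in both genotypes, although Htr1a exceeded it in DF-1062. Htr1b (ENSMUSG00000049511, chr9:81628291-81633828, minus strand, GRCm38) was listed at 19.0, 14.0, 19.9 and 13.6 FPKM in the WT mice and at 23.2, 6.12, 20.4 and 6.46 FPKM in the 16p11.2+/- mice. DF-1037 and DF-1062 were below every WT mouse, whereas DF-1018 and DF-1059 were above every WT mouse. The means were 16.6 ± 3.29 FPKM in WT and 14.0 ± 9.02 FPKM in 16p11.2+/- (SD, n = 4 each; exact two-sided permutation test, p = 0.6). With 4 mice against 4 there are 70 assignments, and the smallest p of the exact permutation test is 0.0286. D430036J16Rik overlaps 18.0% of the exon sequence of Htr1b on the opposite strand, and its counts were 130 to 160 in WT and 174, 64, 195 and 70 in 16p11.2+/- mice. The strand setting of the counting is not given in the sources used here, so reads of the overlap cannot be told apart.

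Htr1d, a close relative of Htr1b that also serves as a terminal autoreceptor, had a lower level with a like pattern. Htr1d (chr4:136423524-136444398) was listed at 2.29, 1.31, 2.57 and 2.26 FPKM in WT and at 2.85, 0.712, 2.79 and 1.40 FPKM in 16p11.2+/- mice. DF-1018 and DF-1059 were again the highest of the 8 mice and DF-1037 was the lowest, but DF-1062 was above WT-1041. The means were 2.11 ± 0.553 and 1.94 ± 1.06 FPKM (SD, n = 4 each; exact permutation test, p = 0.8).

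Htr1a, best known as the somatodendritic autoreceptor of raphe neurons and a receptor of cortical and hippocampal neurons, was the most variable of the 10 genes. Htr1a (chr13:105443639-105448122) was listed at 2.29, 3.19, 1.67 and 0.607 FPKM in WT and at 1.07, 2.28, 2.74 and 7.06 FPKM in 16p11.2+/- mice, an 11.6-fold span between WT-1063 and DF-1062. DF-1062 was highest by far, and the other 3 mice of its group lay within the WT range. The means were 1.94 ± 1.08 and 3.29 ± 2.61 FPKM (SD, n = 4 each; exact permutation test, p = 0.457).

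Htr1f and Htr5a were also low. Htr1f (chr16:64924729-65105854), an inhibitory receptor targeted by triptans, was listed at 1.79, 1.42, 1.11 and 0.672 FPKM in WT and 0.611, 0.834, 1.45 and 0.868 FPKM in 16p11.2+/- mice. DF-1018, which had the highest Htr1b, had the lowest Htr1f. Htr5a (chr5:27842149-27855088) was listed at 2.15, 2.39, 1.69 and 1.89 FPKM in WT and 1.94, 2.35, 2.02 and 2.76 FPKM in 16p11.2+/- mice. It varied least of the 10 genes, with a 1.63-fold span over the 8 mice. The exact permutation test gave p = 0.314 for Htr1f and p = 0.371 for Htr5a.

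The Gq/11-coupled receptors Htr2c and Htr2a took the next places by FPKM. Htr2c (ENSMUSG00000041380, chrX:146962513-147197277), which is abundant in choroid plexus epithelium as well as in neurons, was listed at 7.003, 7.15, 7.67 and 18.9 FPKM in WT and at 9.40, 4.90, 8.31 and 15.2 FPKM in 16p11.2+/- mice. WT-1063 and DF-1062 were high in their groups. The means were 10.2 ± 5.83 and 9.44 ± 4.26 FPKM (SD, n = 4 each; exact permutation test, p = 0.771). WT-1063 had the highest summed choroid plexus FPKM and a high thalamic sum, whereas DF-1062 had a low choroid plexus sum (16.5 FPKM) and a high thalamic sum (134 FPKM). WT-1015, with the second highest choroid plexus sum (477 FPKM), had the lowest Htr2c of the WT group. DF-1037, with the highest thalamic sum (199 FPKM), had the lowest Htr2c of all mice. The part of these cells in Htr2c was not tested.

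Htr2a (ENSMUSG00000034997, chr14:74640840-74709494), a receptor of cortical pyramidal neurons and the main target of serotonergic hallucinogens, was listed at 5.99, 8.44, 6.49 and 5.87 FPKM in WT and at 6.78, 7.24, 9.42 and 4.12 FPKM in 16p11.2+/- mice. DF-1059 was highest and DF-1062 lowest, with the WT mice between them. The means of 6.70 ± 1.19 and 6.89 ± 2.18 FPKM were close (SD, n = 4 each; exact permutation test, p = 0.943). DF-1037, with the second lowest MSN score, had an Htr2a level within the WT range and the highest cortical glutamatergic sum of the 8 mice (158 FPKM). DF-1062, the lowest for Htr2a, had a low cortical sum (11.9 FPKM). DF-1018 had the lowest cortical sum (11.8 FPKM) and an Htr2a level within the WT range, and DF-1059, the highest for Htr2a, had a cortical sum of 43.5 FPKM. The part of cortical RNA in Htr2a was not tested.

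Among the Gs-coupled receptors, Htr7 was the most abundant by mean FPKM. Htr7 (chr19:35958734-36057507), a receptor expressed in thalamus and hippocampus among other regions, was listed at 1.71, 2.67, 2.12 and 4.42 FPKM in WT and at 3.07, 3.35, 3.08 and 8.39 FPKM in 16p11.2+/- mice. All 4 16p11.2+/- mice were above WT-1015, WT-1041 and WT-1061, and only WT-1063 placed the groups in overlap. The means were 2.73 ± 1.19 and 4.47 ± 2.61 FPKM (SD, n = 4 each; exact permutation test, p = 0.286). The mice with the highest summed thalamic FPKM, WT-1063, DF-1018, DF-1037 and DF-1062, were among the 5 highest for Htr7. The fifth, DF-1059, had a low thalamic sum (21.4 FPKM) and an Htr7 level as high as that of DF-1018, and the part of thalamic RNA in the levels of single mice was not tested.

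Htr6 (chr4:139061108-139075570, minus strand), a receptor enriched in striatum, was listed at 2.06, 1.42, 2.01 and 1.22 FPKM in WT and 2.24, 1.09, 1.92 and 1.03 FPKM in 16p11.2+/- mice. As for Htr1b, DF-1018 was the highest of the 8 mice, and DF-1037 and DF-1062 were the lowest. The means were 1.68 ± 0.422 and 1.57 ± 0.604 FPKM (SD, n = 4 each; exact permutation test, p = 0.686). Htr4, known for roles in gut motility and in limbic forebrain, had the lowest mean of the 10 genes in WT, at 0.696, 0.813, 0.747 and 0.824 FPKM, although in WT-1063 both Htr1f and Htr1a were below it. In 16p11.2+/- mice it was at 0.859, 0.238, 1.49 and 2.01 FPKM, so that DF-1037 was the lowest of the 8 mice and the other 3 exceeded the whole WT group (p = 0.314 by exact permutation test). These values rest on 49 to 62 counts in WT and 17 to 155 counts in 16p11.2+/- mice.

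**Figure D1:**
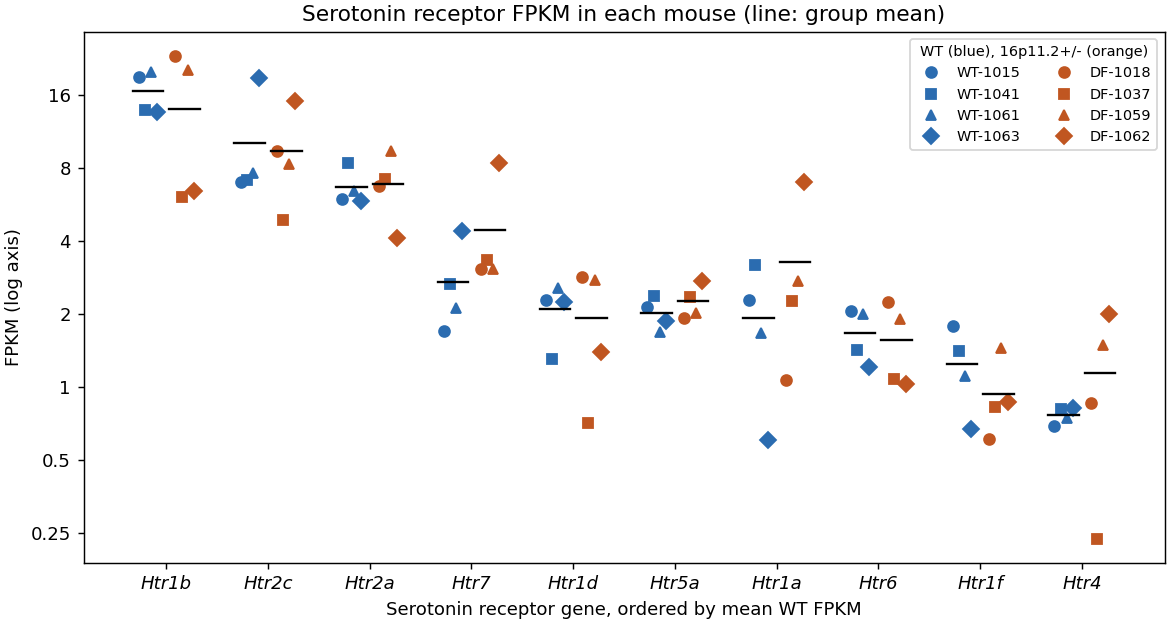
FPKM (log axis) of the 10 serotonin receptor genes in each of the 4 WT (blue) and 4 16p11.2+/- (orange) mice, with a line at each group mean, ordered by mean WT FPKM. Htr1b is split in the 16p11.2+/- group (23.2 and 20.4 against 6.12 and 6.46 FPKM), and the groups overlap for all 10 genes.

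By mean WT FPKM, the order was Htr1b, Htr2c, Htr2a, Htr7, Htr1d, Htr5a, Htr1a, Htr6, Htr1f and Htr4. Of the 9 neighbouring pairs in this order, only Htr2a and Htr7 had WT ranges that did not overlap, with a 2.45-fold ratio of means. Htr2a exceeded Htr7 in all 4 WT mice and in 3 of 4 16p11.2+/- mice, the exception being DF-1062, where Htr7 (8.39 FPKM) and Htr1a (7.06 FPKM) were above both Htr2a (4.12 FPKM) and Htr1b (6.46 FPKM). Htr1b exceeded Htr2c 1.63-fold, in 3 of 4 WT and 3 of 4 16p11.2+/- mice. Htr2c exceeded Htr2a 1.52-fold, in 3 WT and 2 16p11.2+/- mice. The size of this ratio rests on WT-1063, with 18.9 FPKM of Htr2c and 5.87 FPKM of Htr2a. In WT-1015, WT-1041 and WT-1061, Htr2c was at 7.003, 7.15 and 7.67 FPKM and Htr2a at 5.99, 8.44 and 6.49 FPKM. Their order is thus not firmly set by these data either. Htr1d, Htr5a and Htr1a had means within 1.04-fold and 1.05-fold of the next, so their order is not set by these data. Htr6 was above Htr1f in all 8 mice, although the ranges of the WT group overlapped. Htr1f exceeded Htr4 in 3 WT mice but in 1 16p11.2+/- mouse.

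The summed FPKM of the family differed little between the genotype means but the make-up differed between mice. The sum was 45.0, 42.8, 46.02 and 50.3 FPKM in WT and 52.0, 29.1, 53.6 and 49.3 FPKM in 16p11.2+/- mice. DF-1037 was low, whereas DF-1062 kept a sum within the WT range with other genes in the lead. Htr1b made up 42.2%, 32.7%, 43.3% and 27.1% of the sum in WT and 44.6%, 21.03%, 38.0% and 13.1% in 16p11.2+/- mice. It held first place in 5 of 8 mice. Htr2c was first in WT-1063 (37.6%) and in DF-1062 (30.8%), and Htr2a was first in DF-1037 (24.9%). In DF-1062, Htr7 (17.0%) and Htr1a (14.3%) came next. By coupling, the 5 Gi/o genes held 37.6% to 61.2%, the 2 Gq/11 genes 28.9% to 49.3% and the 3 Gs genes 9.94% to 23.2% of the sum. The highest Gs share was that of DF-1062.

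**Figure D2:**
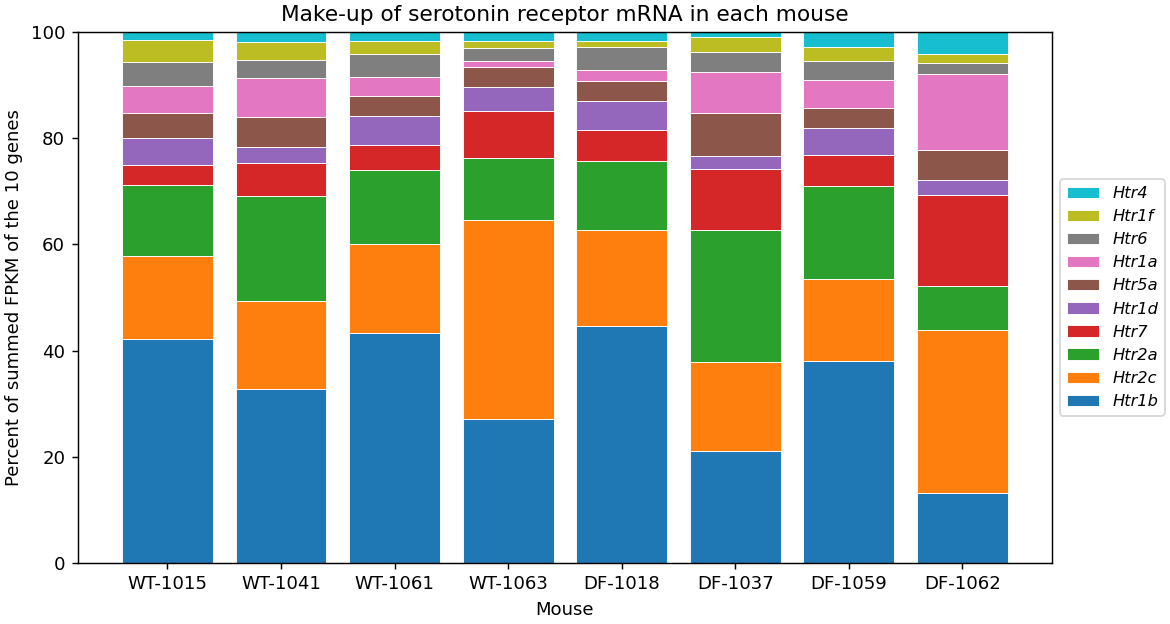
Percent of the summed FPKM of the 10 receptor genes taken by each gene (stacked bars from 0 to 100) in each mouse. Htr1b takes 27.1% to 43.3% in WT mice, 44.6% and 38.0% in DF-1018 and DF-1059, and 21.03% and 13.1% in DF-1037 and DF-1062.

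The genotypes were then compared with a count model over all genes. No receptor differed between the genotypes by the edgeR quasi-likelihood test at an adjusted p of 0.05 (0 of 10, against 0.109% of the 18294 genes tested), and none passed with DESeq2 or limma either. At an unadjusted p of 0.05 in edgeR, 0 of 10 passed, against 4.32% of all genes (2.37% lower and 1.95% higher in 16p11.2+/-). The FPKM ranges of the groups overlapped for all 10 receptors, against 2.83% of genes without overlap. The log2 fold change was below 0 for 5 receptors and above 0 for 5, with a median of -0.04 against -0.01 over all genes. All 10 had an adjusted p of 0.859 or more.

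The intervals of the differences were wide for most receptors. The largest positive differences were those of Htr1a, at 0.71 (SE 0.59, 95% interval -0.63 to 2.06), Htr7, at 0.67 (SE 0.39, -0.21 to 1.56), and Htr4, at 0.55 (SE 0.49, -0.58 to 1.67), on the log2 scale. The most negative were Htr1f, at -0.43 (SE 0.36, -1.24 to 0.38), and Htr1b, at -0.25 (SE 0.45, -1.27 to 0.77). Htr2c (-0.14, SE 0.40), Htr1d (-0.14, SE 0.43), Htr6 (-0.11, SE 0.32) and Htr2a (0.03, SE 0.24) lay nearer to 0. The narrowest interval was that of Htr5a (0.13, SE 0.15), which spans a fold of 0.869 to 1.39. For Htr7 the interval spans a fold of 0.864 to 2.95.

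Without DF-1037 and DF-1062, the signs changed for 5 receptors. Htr1b moved from -0.25 to 0.40 (SE 0.19, 95% interval -0.04 to 0.83), Htr1d to 0.42 (SE 0.27) and Htr6 to 0.32 (SE 0.27). Htr1a moved from 0.71 to -0.023 (SE 0.62), Htr5a to -0.027, and Htr7 from 0.67 to 0.18 (SE 0.35). Htr2a was 0.28 (SE 0.18), Htr2c -0.19 (SE 0.42) and Htr1f -0.27 (SE 0.47). Htr4 stayed positive at 0.61 (SE 0.24, 0.05 to 1.18), and was the 1 receptor of 10 with an unadjusted p under 0.05, against 4.03% of the 19092 genes tested (edgeR adjusted p = 0.996). None passed after adjustment, against 0.0576% of genes. With the thalamic score as a covariate, the log2 fold change of Htr7 was 0.37 (edgeR adjusted p = 0.999), and it was 0.84 with the choroid plexus score (edgeR adjusted p = 0.769), 0.48 with the cortical score (edgeR adjusted p = 0.927) and 0.18 with the MSN score (edgeR adjusted p = 0.9999). Htr1a moved further, to 1.27 with the thalamic score, 1.03 with the cortical, 0.41 with the choroid plexus and 0.03 with the MSN score. It did not pass the adjusted test with any of them.

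**Figure D3:**
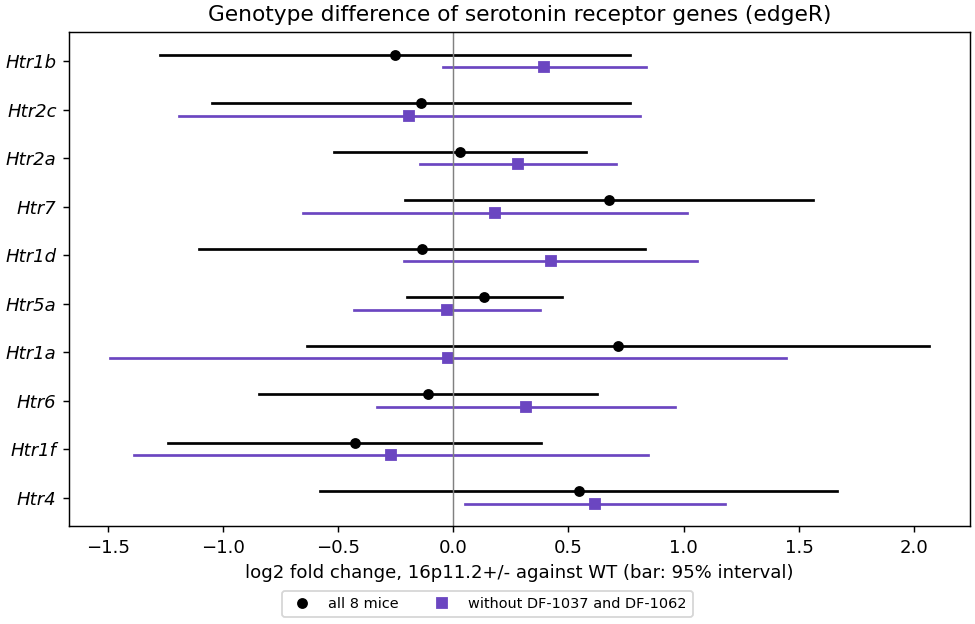
Log2 fold change of each receptor in 16p11.2+/- against WT mice by edgeR, with bars for the 95% interval, over all 8 mice (black) and without DF-1037 and DF-1062 (purple squares). All intervals over 8 mice include 0, and Htr1b moves from -0.25 to 0.40 without the 2 mice.

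DF-1037 and DF-1062 were low in MSN genes and were the lowest mice for Htr1b and Htr6, although DF-1062 was the highest for Htr1a, Htr4, Htr5a and Htr7. Each receptor was therefore set against the MSN score of its own mouse. This measure, log2 CPM minus the MSN score, was chosen after the values were seen. For Htr1b it was -2.95, -2.94, -3.00 and -2.78 in WT and -2.65, -2.68, -2.72 and -2.10 in 16p11.2+/- mice. All 4 16p11.2+/- mice were above all 4 WT mice, with means of -2.54 and -2.92, although the nearest mice of the groups, DF-1059 and WT-1063, were closer to each other than the WT mice were in their own range. For Htr6 the values were -7.13, -7.20, -7.29 and -7.22 in WT and -7.01, -6.13, -7.10 and -5.68 in 16p11.2+/- mice, again without overlap, and DF-1059 and WT-1015 were likewise close. The groups were apart for these 2 of 10 receptors. The share over all genes was 0.454%, but the measure was chosen after the values were seen and takes each gene to move one for one with a score that was itself low in DF-1037 and DF-1062, so nothing is read from the count against that share. When the score was a covariate of the edgeR fit instead, with its slope fitted, the log2 fold change was 0.23 for Htr1b (unadjusted p = 0.0762) and 0.29 for Htr6 (unadjusted p = 0.166), with an edgeR adjusted p of 0.9999 for both.

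**Figure D4:**
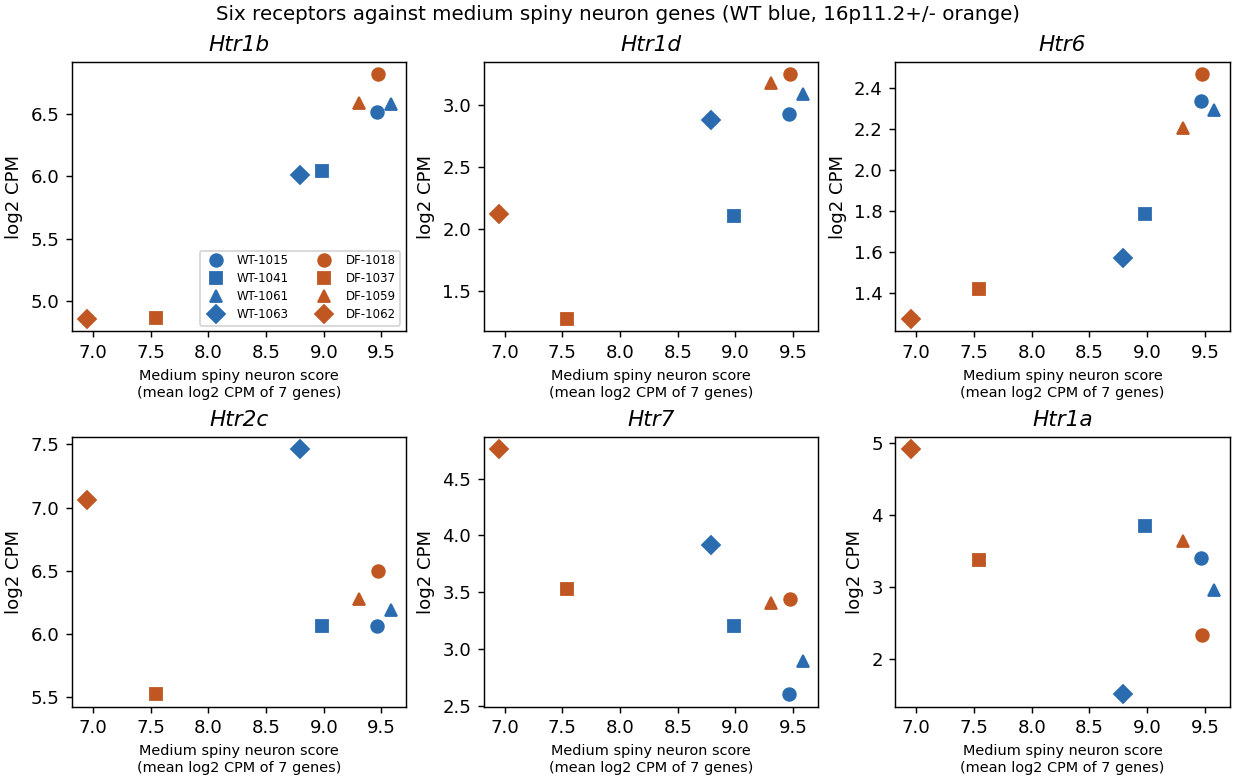
Log2 CPM of 6 receptors against the MSN score (mean log2 CPM of 7 genes) in each mouse, WT in blue and 16p11.2+/- in orange. Htr1b and Htr6 are low in the mice of low score, DF-1037 (7.54) and DF-1062 (6.95), whereas Htr7 and Htr1a are highest in DF-1062 and Htr2c is highest in WT-1063.

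The receptors were also compared with each other over the 8 mice, after the mean of each genotype was taken off. The 45 pairs were tested with an exact permutation within genotype (576 orders), and none passed after Benjamini-Hochberg adjustment. Htr1b and Htr6 were most alike, with Pearson's r = 0.944 (permutation p = 0.00521, adjusted 0.234) and Spearman's rho = 0.952 (permutation p = 0.0139, adjusted 0.313), and r = 0.889 without DF-1018 and DF-1062, the mice farthest from the median. For Htr1b and Htr1d, r was 0.883 (permutation p = 0.0556, adjusted 0.373) and rho 0.881 (permutation p = 0.0799, adjusted 0.452), with r = 0.920 without the same mice. For Htr1d and Htr6, r was 0.778 (permutation p = 0.118, adjusted 0.463) and rho 0.786 (permutation p = 0.123, adjusted 0.452), with r = 0.858 without WT-1041 and DF-1037. Htr7 ran against Htr6, with r = -0.78 (permutation p = 0.0104, adjusted 0.234), rho = -0.88 (permutation p = 0.00694, adjusted 0.313) and r = -0.59 without WT-1063 and DF-1062. Htr2c and Htr7 had r = 0.794 (permutation p = 0.0521, adjusted 0.373) but rho = 0.333 (permutation p = 0.474, adjusted 0.889), and r = -0.21 without WT-1063 and DF-1062, so that relation rests on those mice. Of the 45 pairs, 4 had an unadjusted permutation p of r under 0.05, the others being Htr1b with Htr7 and Htr2c with Htr4. Htr1b and Htr7 had r = -0.61 (permutation p = 0.0313, adjusted 0.373), rho = -0.76 (permutation p = 0.0451, adjusted 0.452) and r = -0.37 without DF-1018 and DF-1062. Htr2c and Htr4 had r = 0.644 (permutation p = 0.0451, adjusted 0.373), rho = 0.714 (permutation p = 0.0625, adjusted 0.452) and r = 0.798 without WT-1063 and DF-1062.

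For the 3 most abundant receptors, the genes with the most similar pattern were taken from 18293 others by Pearson's r of log2 CPM over the 8 mice, again with the mean of each genotype taken off, as a description. Those nearest to Htr1b were Dach1, a transcription factor gene (r = 0.9996, rho = 1), Nus1, which acts in dolichol synthesis (r = 0.997, rho = 0.952), and Penk (r = 0.997, rho = 1). Penk encodes proenkephalin, the opioid peptide precursor of indirect pathway MSNs, and was itself 111 and 115 FPKM in DF-1037 and DF-1062 against 266 to 456 FPKM in the other mice. Those nearest to Htr2c were Galnt11, a glycosyltransferase gene (r = 0.990, rho = 1), Nxn, which encodes nucleoredoxin (r = 0.979, rho = 0.905), and the mitochondrial carrier gene Slc25a11 (r = 0.972, rho = 0.929). Those nearest to Htr2a were the noncoding RNA gene Pantr1 (r = 0.976, rho = 0.905), the mitochondrial carrier gene Slc25a44 (r = 0.9753, rho = 0.952) and Tbc1d22a (r = 0.972, rho = 1). Without the 2 mice farthest from the median, which for Htr1b were DF-1018 and DF-1062 and left DF-1037 in, r was 0.993 or more for the Htr1b genes, 0.872 for Pantr1 and 0.880 for Slc25a44. These genes were picked for the highest r, so the values describe the match only.

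The other serotonin receptor genes had few counts. Htr3a, a subunit of the ion channel receptor, had 11 to 48 counts in WT and 11 to 30 in 16p11.2+/- mice (log2 fold change -0.27). By FPKM its WT mean (0.749) was close to that of Htr4 (0.770), the lowest of the 10 receptors. Htr2b had 2 to 9 counts, and Htr3b 0 to 1. Htr5b, which was not tested, had 4 to 18 counts in WT and 8, 9, 2 and 42 in 16p11.2+/- mice, with the 42 in DF-1062 (1.31 FPKM). Of 8 genes for serotonin synthesis, transport and breakdown, 4 were tested, 2 below and 2 above 0, and none passed. The most abundant by FPKM were Maob and Maoa, the monoamine oxidases, at means of 11.3 and 9.20 FPKM in WT and 13.03 and 10.8 FPKM in 16p11.2+/- mice (log2 fold changes 0.17 and 0.20). The neuronal synthesis gene Tph2 had 4 to 13 counts and the transporter gene Slc6a4 had 0 to 6, and both are known to be transcribed in raphe cell bodies.

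Genes that act downstream of the receptors were also examined. Of 9 G protein alpha subunit genes tested out of 10, 4 were below and 5 above 0, and none passed the adjusted test. Gnai3 and Gnas had an unadjusted p under 0.05, against 4.32% of all genes. Gnal, the olfactory and striatal Gs-type subunit, had mean FPKM of 114 in WT and 99.5 in 16p11.2+/- mice (log2 fold change -0.21), and Gnao1 had 75.4 and 71.7 (log2 fold change -0.09). Gnai3, an inhibitory subunit gene, was at 15.1, 13.8, 14.2 and 16.1 FPKM in WT and 12.4, 13.2, 12.9 and 12.97 FPKM in 16p11.2+/- mice. Its groups did not overlap, as for 2.83% of all genes, with a log2 fold change of -0.23 (SE 0.07, unadjusted p = 0.0125, edgeR adjusted p = 0.859). Gnas had a log2 fold change of 0.91 (SE 0.40, unadjusted p = 0.0482, edgeR adjusted p = 0.859). It was at 1.34 to 1.99 FPKM in WT and at 1.55, 1.99, 2.66 and 6.58 FPKM in 16p11.2+/- mice, with the 6.58 in DF-1062. Whether the Gnas difference rests on DF-1062 was not tested. Overlap with other genes was looked for only at the serotonin receptor genes. Whether reads of Gnas were left uncounted was therefore not tested, and its FPKM may understate the level of the gene.

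All 17 adenylyl cyclase, phospholipase C beta and GIRK channel genes were tested, of which 6 were below and 11 above 0 with a median log2 fold change of 0.14, and none passed, adjusted or not. The striatal cyclase gene Adcy5 had 153, 125, 173 and 114 FPKM in WT and 177, 56.5, 166 and 50.6 FPKM in 16p11.2+/- mice, and so divided the 16p11.2+/- mice as Htr1b did. Its log2 fold change was -0.34, and that of Plcb1, which had mean FPKM of 35.8 and 27.1, was -0.42. The 7 receptor partner, arrestin and RNA editing genes had 2 below and 5 above 0 and none passed. Their most abundant genes were Dlg4, which encodes the scaffold PSD-95 (49.7 and 47.2 FPKM, log2 fold change -0.09), and Arrb1, an arrestin gene (29.3 and 31.9 FPKM, log2 fold change 0.10).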

How the data were processed

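Striatum RNA of 8 mice was sequenced, with sequencing and its analysis done by a service company. Per the paper, reads were filtered, mapped with Hisat2 and counted with Htseq-count. The submitters' processing notes name Bowtie 0.12.2 with mm8 and mm9 instead. Counts per gene and FPKM were deposited by the authors for each mouse. FPKM equalled the count over gene length and total count within 0.1% for 100% of genes, and the implied length was within 1 base of the GENCODE M21 (GRCm38) exon length for 97.1% of 31473 genes, so M21 positions are given. The authors' comparison table (group means, fold changes and p-values) and FPKM bins were not used.

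Counts were tested with edgeR 4.0.16 (R 4.3.3; TMM, filterByExpr at 10 counts and 15 in total, quasi-likelihood, Benjamini-Hochberg over 18294 genes, threshold 0.05). Alternatives were DESeq2 1.42.0, limma 3.58.1 on counts or on log2(FPKM + 0.1 or + 1), other scalings and filters, marker scores as covariates, and leaving out mice. Leaving out DF-1037 and DF-1062 together, and the MSN score, were added after seeing the data. Counts of mice of one genotype were not copies of one library (chi-square over its degrees of freedom, 8.98 to 64.2). The tests were checked on simulated counts. FPKM was compared by exact permutation over 70 assignments (scipy 1.17.1). Promoters are from RefSeq (GRCm38.p6).

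The members and the gene lists were chosen with earlier results of these data known. Named genes are all 10 receptors, the 2 most abundant of each related serotonin list by WT FPKM with those under an unadjusted p of 0.05, and the 3 genes nearest in pattern to each of the 3 most abundant receptors. Single marker genes and the low-count genes of the serotonin lists were named after their values were seen. Cholinergic (5 genes), direct pathway (6), indirect pathway (5 of 6 scored) and other interneuron (6) markers were also summed.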

Additional observations from a re-analysis of the deposited data

Results flagged for a closer look

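In 5 of 38 groups of 4 mice examined, 1 mouse lay farther from the rest than Dixon's critical value allows for the gap over the range. Chance flags about 1 group in 20. Htr2c in WT-1063 was 18.9 FPKM against 7.003 to 7.67 FPKM in the other WT mice (gap over range 0.944). Htr7 in DF-1062 was 8.39 FPKM against 3.07 to 3.35 FPKM in the other 16p11.2+/- mice (0.946). The thalamic neuron score in WT-1063 was 6.74, the rest of the WT group lying at 3.23 to 3.56 (0.906), in the mouse with the high Htr2c. The habenula score in DF-1062 was 3.34 against 0.278 to 0.606 in the other 16p11.2+/- mice (0.893), in the mouse with the high Htr7. The cholinergic interneuron score in DF-1037 was 2.39 against 4.56 to 4.85 in the other 16p11.2+/- mice (0.881). The part of these cell types in the receptor values was not tested.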

How the results depend on the processing

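No receptor passed the adjusted test under any of the 21 alternatives run, with a lowest adjusted p of 0.571. Of 210 receptor log2 fold changes recomputed, 182 kept their sign and 28 did not, and the cause was not tested. Leaving out each mouse in turn gave ranges of -0.62 to 0.011 for Htr1b (0.011 without DF-1062), -0.40 to 0.14 for Htr1d (0.14 without DF-1037), -0.15 to 0.24 for Htr2a, -0.41 to 0.34 for Htr2c (0.34 without WT-1063) and -0.34 to 0.075 for Htr6 (0.075 without DF-1062). The other ranges held 1 sign, at 0.076 to 1.05 for Htr1a, -0.71 to -0.19 for Htr1f, 0.18 to 0.89 for Htr4, 0.066 to 0.22 for Htr5a and 0.23 to 1.004 for Htr7. An unadjusted p under 0.05 appeared for Htr4 without DF-1037 (log2 fold change 0.89, unadjusted p = 0.00916, edgeR adjusted p = 0.822) and for Htr7 without WT-1063 (1.004, unadjusted p = 0.0282, edgeR adjusted p = 0.571). Each was 1 of 10 receptors, and no receptor had one in the other fits that left out a single mouse. The share over all genes was not computed for these fits (4.32% with all 8 mice), so nothing is read from them. The log2 fold change of Htr2a was -0.030 with limma-voom, -0.0027 with limma-trend on log2(FPKM + 0.1) and -0.062 with the choroid plexus score as a covariate, which also gave 0.21 for Htr2c. Limma-voom gave -0.51 for Htr1b, -0.31 for Htr1d, -0.39 for Htr1f and 0.22 for Htr4. Htr1b was then more negative than Htr1f, unlike in edgeR. With the thalamic score, Htr1b was 0.011, Htr1d 0.00063, Htr1f 0.0063 and Htr6 0.17. With the MSN score, Htr1b was 0.23, Htr1d 0.25, Htr5a -0.0027 and Htr6 0.29. Without both DF-1037 and DF-1062, Htr1a was -0.023, Htr1b 0.40, Htr1d 0.42, Htr5a -0.027 and Htr6 0.32. Over all genes, 20 passed (17 lower and 3 higher). The number higher was 0 with at least 10 counts in every mouse and 5 with DESeq2. With the choroid plexus score 13 passed (11 lower), with the cortical score 11 were lower, and without both mice 11 passed (9 lower). Leaving out each mouse in turn left 8 to 18 genes, of which 6 to 15 were lower, with the lowest numbers without DF-1018 or DF-1059. All 9 neighbouring pairs of the receptor order held with TMM-scaled counts and with medians, and 7 held without WT-1063. No paired analysis was possible because the genotypes share no replicate numbers. Receptors with fewer than 100 counts in some mice, such as Htr4, Htr1f and Htr6, may be limited by depth as well as by the spread between mice. The part of each was not tested.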

Other observations

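Marker lists of other striatal neurons were read in the same libraries. Direct pathway MSN genes (6, led by Drd1) summed to 171, 129, 181 and 117 FPKM in WT and 178, 63.0, 165 and 74.9 FPKM in 16p11.2+/- mice. Indirect pathway genes (5, led by Penk) summed to 511, 388, 614 and 368 FPKM in WT and 613, 148, 539 and 143 FPKM in 16p11.2+/- mice. Both sums, which Drd1 and Penk lead, were lowest in DF-1037 and DF-1062, but not every gene of the lists was. Isl1, a transcription factor gene of the direct list, was highest of the 8 mice in DF-1062 (6.74 FPKM), Pdyn, which encodes prodynorphin, was at 22.95 FPKM in DF-1062 against 18.6 to 26.5 FPKM in WT, and Sp9, of the indirect list, was at 1.84 FPKM in DF-1062 against 1.77 FPKM in WT-1063. Other interneuron genes (6, led by Sst, the somatostatin gene) summed to 204, 250, 182 and 234 FPKM in WT and 189, 385, 209 and 181 FPKM in 16p11.2+/- mice, with DF-1037 the highest. In DF-1037, Sst (155 FPKM), Pvalb (103 FPKM), Cck (69.2 FPKM) and Npy (50.2 FPKM) were the highest of the 8 mice. Nos1 of the same list was the lowest there (4.78 FPKM), and Vip (3.68 FPKM) was below WT-1041 (4.41 FPKM). DF-1037 also had the highest cortical (158 FPKM) and thalamic (199 FPKM) sums, and their part in this list was not tested. The cholinergic score (5 genes) was 3.74, 3.65, 4.91 and 3.91 in WT and 4.56, 2.39, 4.71 and 4.85 in 16p11.2+/- mice. No gene of these 4 lists passed the adjusted edgeR test.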
